A study of Mus musculus with 16 samples.

Results

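The mitosis genes described here are 40 genes whose products build the spindle and kinetochores or drive a cell through mitosis. They were taken by symbol from a list set by their function in mitosis, and each was matched to 1 Ensembl gene identifier among the 55401 genes of the deposited tables. The list was chosen with earlier results of these data known, so counts of members beside all genes are a description. All 40 passed the filter on low counts, which left 15277 genes of the series for testing. The study asked how loss of the pyruvate dehydrogenase complex (PDC), which turns pyruvate into acetyl-CoA, alters mouse CD8+ T cell differentiation in vitro. RNA was sequenced from 4 groups of 4 libraries. WT TE and WT TM came from wild-type cells, and TPdh-/- TE and TPdh-/- TM from cells in which Pdha1, the E1 alpha subunit of PDC, was floxed and deleted by a Cre transgene under the Cd4 promoter. TE are effector cells made with IL-2, and TM are memory cells made with IL-15. Per the study's methods the mice were of both sexes and 8 to 12 weeks old, and OT-I cells, which carry 1 transgenic T cell receptor for an ovalbumin peptide, were activated with that peptide for 3 days and then kept in the cytokine for 4 days. By those methods all 4 groups share the receptor transgene and the peptide stimulation, though the study's legend for the TM RNA names only splenic T cells. The study describes its measurements as taken from discrete samples and its TM RNA as taken from mice, in a number that differs from the libraries here, and the labels tie no library to a mouse or a sex, so p-values measure the spread between these libraries, which may in part be technical. Libraries are named by the number in their label, 1 to 4 for WT TE, 5 to 8 for TPdh-/- TE, 9 to 12 for WT TM and 13 to 16 for TPdh-/- TM.

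Entry into mitosis is driven by the kinase CDK1 bound to cyclin A or cyclin B and switched on by CDC25 phosphatases. Polo-like and Aurora kinases then mature the spindle poles, kinetochores join centromeres to microtubules, kinesin motors move chromosomes and slide microtubules, and the spindle checkpoint holds back the anaphase-promoting complex until every chromosome is attached. Most of these genes are transcribed mainly in G2 and M, through the MuvB complex with the transcription factors B-MYB and FOXM1, and are silenced in G1 and in resting cells by the DREAM complex. Activated CD8+ T cells divide fast, and their mitosis transcripts are a usual readout of how many cells are cycling. In bulk RNA, fewer cells in mitosis and less of these transcripts per dividing cell cannot be told apart.

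The MuvB complex is known to bind a short element called CHR (searched as TTTGAA or TTCGAA) close to the start of transcription, and a nearby CCAAT box (searched as CCAAT) binds the factor NF-Y. Both were searched on both strands, where TTTGAA reads as TTCAAA and CCAAT as ATTGG, and no match of one lay inside a match of the other in the stretches printed. The 120 bases before the RefSeq start (GRCm38.p6, the build of the deposited tables) are shown for 7 members, with CHR and CCAAT matches in capitals, since they show what most members share and how 2 of them differ. The stretches are Cdk1 (chr10:69352913-69353032, minus strand), the mitotic kinase, Cdc20 (chr4:118437344-118437463, minus strand) and Ube2c (chr2:164769809-164769928, plus strand), partners of the anaphase-promoting complex, Kif11 (chr19:37376262-37376381, plus strand), the motor that pushes spindle poles apart, Top2a (chr11:99024190-99024309, minus strand), the topoisomerase that untangles sister chromatids, Kif15 (chr9:122950961-122951080, plus strand), a second pole-separating motor, and Birc5 (chr11:117849117-117849236, plus strand), survivin of the chromosomal passenger complex. Kif15 holds a CHR and no CCAAT box, and Birc5 holds neither in this stretch.
Cdk1: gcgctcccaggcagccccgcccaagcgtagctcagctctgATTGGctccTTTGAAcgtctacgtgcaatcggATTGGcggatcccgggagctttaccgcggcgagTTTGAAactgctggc
Cdc20: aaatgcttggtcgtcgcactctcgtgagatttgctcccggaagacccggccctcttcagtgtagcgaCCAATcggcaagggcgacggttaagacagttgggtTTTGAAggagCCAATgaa
Ube2c: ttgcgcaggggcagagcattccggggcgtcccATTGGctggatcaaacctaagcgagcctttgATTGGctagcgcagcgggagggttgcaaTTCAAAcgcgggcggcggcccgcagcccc
Kif11: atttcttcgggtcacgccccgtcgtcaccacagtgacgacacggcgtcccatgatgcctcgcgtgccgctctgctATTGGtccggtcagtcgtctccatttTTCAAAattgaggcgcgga
Top2a: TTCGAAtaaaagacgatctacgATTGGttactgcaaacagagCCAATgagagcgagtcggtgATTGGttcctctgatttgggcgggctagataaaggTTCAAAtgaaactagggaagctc
Kif15: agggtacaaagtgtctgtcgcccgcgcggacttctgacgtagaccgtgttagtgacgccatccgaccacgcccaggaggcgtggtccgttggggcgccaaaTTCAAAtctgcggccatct
Birc5: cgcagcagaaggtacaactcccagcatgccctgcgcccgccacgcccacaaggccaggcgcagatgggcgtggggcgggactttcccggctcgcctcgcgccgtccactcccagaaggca

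Over the whole window of 250 bases before to 50 bases after the start, 33 of the 40 members had a RefSeq promoter. A CHR match was present in 27 of these 33 (81.8%), against 21.7% of 27025 genes with a window of the same length. CCAAT was present in 24 (72.7%, against 41.1%), and both motifs in 22 (66.7%, against 8.61%). The CHR lay within 50 bases of the start in 25 members (75.8%, against 6.12%). In the Cdk1 stretch the CHR nearest to the start began 15 bases before the start, in Cdc20 18, in Kif11 and Kif15 19, in Top2a 23 and in Ube2c 29. These distances hold for the RefSeq start. In GENCODE M21, to which the genes were matched, Cdk1 (chr10:69352938), Cdc20 (chr4:118437352), Ube2c (chr2:164769898) and Kif15 (chr9:122951046) begin inside the printed stretches. The 6 members without a CHR match were Ccnb1, Mad2l1, Birc5, Cenpe, Nuf2 and Mybl2. DNA replication genes, which peak earlier in the cycle, had CCAAT about as often (72.7% of 22 genes with a window) and CHR in 22.7%. CHR was present in 45.9% of the other kinetochore genes with a window, 46.9% of the other spindle genes and 57.1% of the condensin and cohesin genes. A match describes letters only, and 7 members (Ccna2, Cdc25c, Tpx2, Aurkb, Incenp, Kif20a and Foxm1) had no window.

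**Figure D1:**
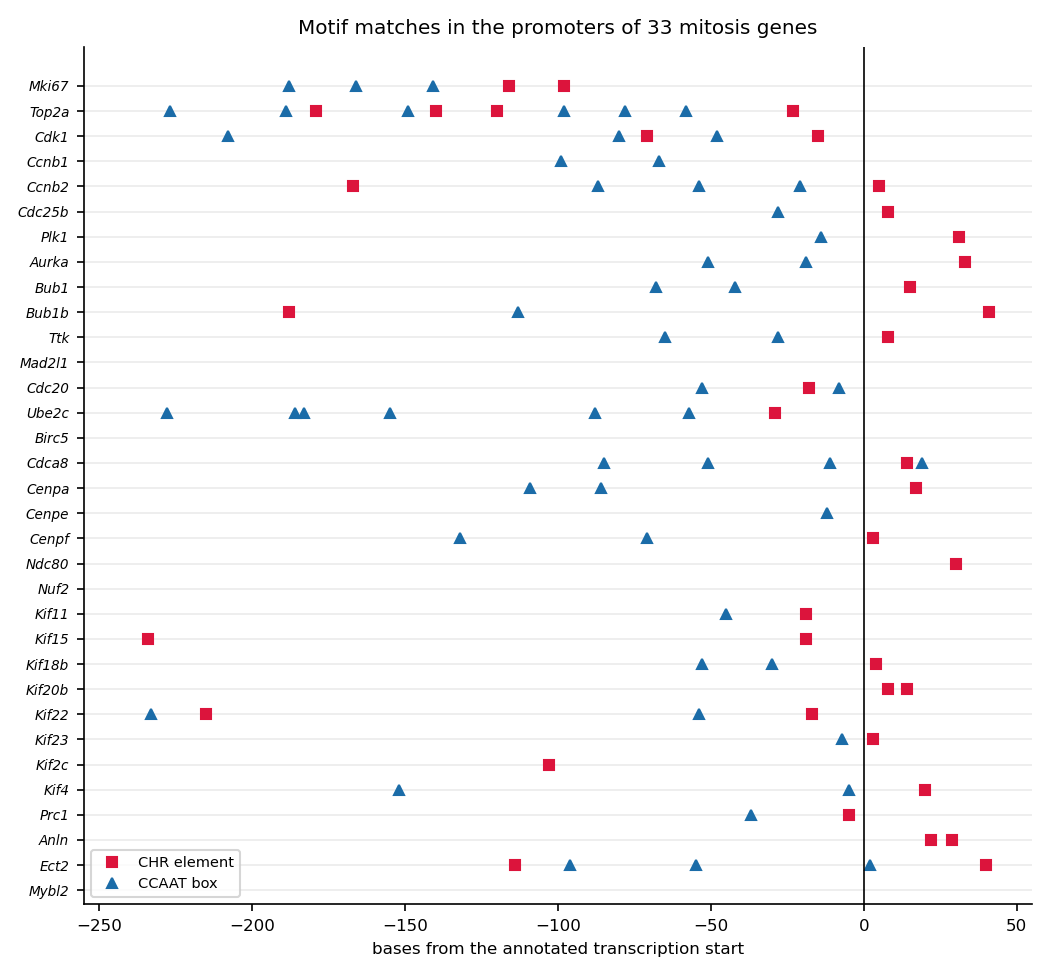
Positions of CHR matches (squares) and CCAAT matches (triangles) in the first RefSeq window of 33 mitosis genes, in bases from the annotated start (x axis). Of the 33 genes, 25 have a CHR within 50 bases of the start.

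Totals were 53007257 to 73507566 counts per library, and the lowest count of any member in any library was 663 (Cdc25c). Over all genes library 12 stood apart from the rest of WT TM (chi-square per degree of freedom of 53.7 to 70.3, against 9.13 to 15.9 among libraries 9 to 11) and library 5 less so from TPdh-/- TE (23.4 to 61.3, against 19.3 to 24.8 among libraries 6 to 8). By the same measure library 13 was at 19.2 to 43 from the rest of TPdh-/- TM, against 16.1 to 23.1 among libraries 14 to 16. Counts of members are given without libraries 5 and 12 together, and without library 13. The list of 10 CD8 T cell markers summed to 4587 to 6865 TPM (transcript abundance scaled for gene length and library size) in every library. It holds Cd3 and T cell receptor genes beside Cd8a and Cd8b1. Pdha1 was at 169 to 194 CPM (counts scaled to library size) in WT TM and 141 to 160 in TPdh-/- TM (log2 difference -0.22, adjusted p = 0.0056), and at 160 to 162 in WT TE and 147 to 156 in TPdh-/- TE (-0.076, adjusted p = 0.29). This gene count adds all exons, and it was not tested which exons the deletion removes. Of the exon bases of Pdha1 16.1% overlap Map3k15 on the other strand, and the kit did not keep strand. For splenic TPdh-/- T cells the study reports no Pdha detected by qPCR and no PDHA protein on immunoblots. The genotype groups follow the labels, which read WT and PDH, under the study's name TPdh-/-.

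All 40 mitosis genes were lower in TM than in TE cultures, and all 40 were below WT in TPdh-/- cells of both cultures in the fit described here, although in TE 39 were with scaling by library totals and 36 on log2(TPM + 1). CPM and log2 differences below come from counts scaled by TMM factors and an edgeR quasi-likelihood fit to all 16 libraries, and a gene was called at a Benjamini-Hochberg adjusted p below 0.05 over all genes. In WT, 40 of 40 members fell from TE to TM, where 34.3% of all genes were called lower, and the median level in TM was 54.1% of that in TE (median log2 difference -0.89, range -1.34 to -0.42, against 0.0076 over all genes tested). In TPdh-/- cells 40 of 40 fell as well (34.7% of all genes called lower), to a median of 57.6% (median -0.80, range -1.25 to -0.37). The 4 TM libraries lay below the 4 TE libraries for every member in both genotypes, which held for 32.2% of all genes in WT and 30.7% in TPdh-/- cells. In WT all genes split into 5243 higher and 5236 lower, against 6015 and 4543 with library totals and 6436 and 3368 on log2(TPM + 1), where 38 members were called.

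Loss of PDC went with smaller differences. In TE, 30 of 40 members were lower in TPdh-/- cells, with 14.3% of all genes called lower and 17.3% higher, and the median level was 79.5% of WT (median log2 difference -0.33, range -0.96 to -0.062, against -0.00025 over all genes). With library totals 24 were called in TE, on log2(TPM + 1) 16, and without libraries 5 and 12 35. The split of all genes into higher and lower moved with the scaling in TE, from 2641 and 2182 to 3710 and 1242 with library totals and 3612 and 688 on log2(TPM + 1). In TM, 28 of 40 were lower, with 7.27% of all genes called lower and 11.0% higher, at a median of 81.5% of WT (-0.29, range -0.54 to -0.045, against -0.0048), and 27 without libraries 5 and 12. No member was called higher in these 4 comparisons by edgeR or DESeq2, and none was above 0 with an unadjusted p under 0.05. Libraries of the 2 genotypes did not overlap for 38 members in TE, against 16.6% of all genes that lay apart and lower there. In TM they did not overlap for 17 members, against 8.78%. The median coefficient of variation over the members was 4.38% in WT TE, 5.12% in TPdh-/- TE, 8.02% in WT TM and 14.1% in TPdh-/- TM. Together 24 members were lower in both cultures, which was 85.7% of the 28 called in TM and 80.0% of the 30 called in TE. The share of all genes lower in both cultures was not counted, so this overlap has no background beside it. Taken singly, 7.27% of all genes were lower in TM and 14.3% in TE. Kif11, Kif15, Top2a and Tpx2 were called in TM and not in TE, and Ccnb1, Kif2c, Ndc80, Nuf2, Prc1 and Ttk in TE and not in TM. None of these 10 calls held in every alternative run. The 15 TM calls that did were Mki67, Ccna2, Cdc25b, Cdc25c, Bub1, Bub1b, Ube2c, Cdca8, Incenp, Cenpf, Kif18b, Kif22, Kif23, Foxm1 and Mybl2. The 16 TE calls that did were Mki67, Ccna2, Ccnb2, Cdc25b, Cdc25c, Bub1b, Cdc20, Ube2c, Birc5, Cdca8, Incenp, Cenpa, Cenpe, Cenpf, Kif22 and Kif23. Neither contrast called Anln, Aurka, Cdk1, Ect2, Kif20b or Mad2l1.

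**Figure D2:**
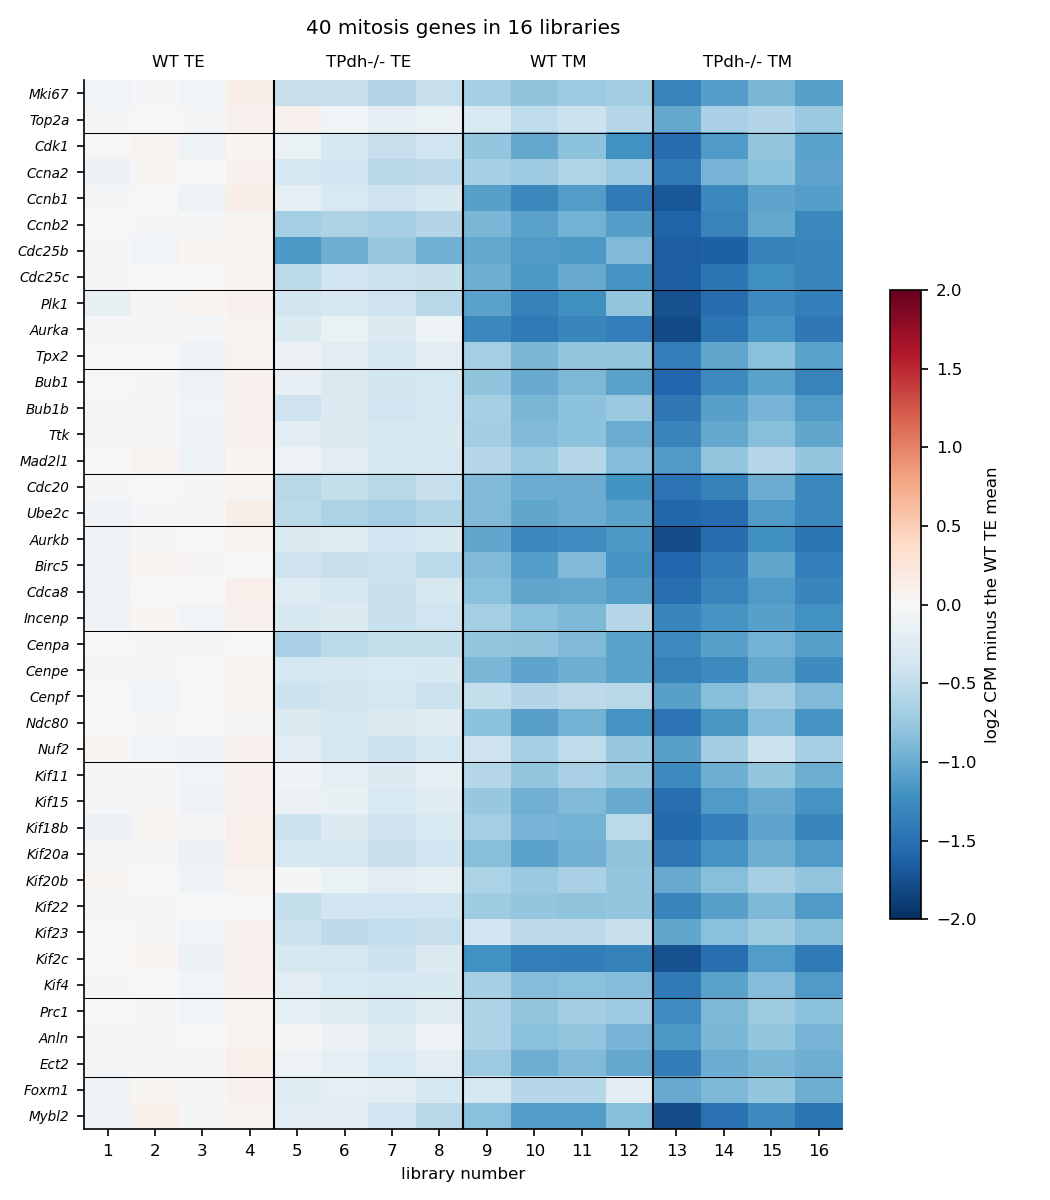
Log2 CPM of 40 mitosis genes (rows, in blocks by role) in 16 libraries (columns) minus the WT TE mean of each gene, from -2 (blue) to 2 (red). Every gene is lower in TM than in TE, and library 13 is the lowest of the TPdh-/- TM libraries for all 40.

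The TPdh-/- TM libraries differed among themselves more than those of any other group in the median over the members. Library 13 was lowest for all 40 members and library 15 highest for 39. The share of mitochondrial counts was highest in library 13 (3.41%) and lowest in library 15 (3.03%), with 3.35% and 3.29% in libraries 14 and 16 and 2.77% to 3.19% in WT TM, and its part in the result was not tested. Their mean log2 CPM over the members was 6.08 and 6.56, with 6.34 and 6.37 in libraries 14 and 16, while WT TM ranged from 6.55 to 6.74, TPdh-/- TE from 7.09 to 7.18 and WT TE from 7.46 to 7.57. Library 15 thus lay at the lower end of WT TM and the other TPdh-/- TM libraries below it. In WT TM, library 9 was highest for 33 members, and in WT TE library 4 was highest for 34. The share of all counts that the 40 genes took was 1.03% ± 0.045 in WT TE, 0.863% ± 0.023 in TPdh-/- TE, 0.647% ± 0.031 in WT TM and 0.529% ± 0.062 in TPdh-/- TM (SD, n = 4 each). The TM genotype count moved with the libraries kept, with 19 members called without library 13, 15 without library 9 and 31 without library 15. Of all genes 5.45%, 5.15% and 5.85% were called lower in these 3 runs, against 7.27% with all libraries. A fit to the 8 TM libraries alone also called 15, with 4.64% of all genes lower. In TE the count was 28 to 33 without any 1 library.

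Genes listed here as markers of other cell types moved with genotype in TM. The paper reads the granzymes and killer-like receptors raised in TPdh-/- TM as marks of an effector phenotype. It also cites its killing assays, in which TPdh-/- TM cells killed targets, for that reading. Which cells expressed these genes was not tested. Summed TPM of 7 NK cell markers other than Gzma was 2.56 to 3.92 in WT TM and 32.97 to 51.03 in TPdh-/- TM, with all 7 higher, and with Gzma the sums were 27.5 to 103 and 448 to 1077. Macrophage markers (6 genes) summed to 5.49 to 6.41 and 22.1 to 36.5, with no overlap, and all 5 that were tested were called higher. Most of that rise was in Lyz2 (2.14 to 3.14 in WT TM and 17.7 to 28.8 in TPdh-/- TM), with Csf1r at or below 0.62. Gamma-delta T cell markers (5) summed to 53.96 to 59.7 and 126 to 142, with no overlap. Dendritic cell markers (5) summed to 0.96 to 1.67 and 7.41 to 15.04, nearly all of it Itgax (0.59 to 1.29 and 6.69 to 14.2), with Flt3 at or below 0.04. B cell markers (6) summed to 10.2 to 20.4 in WT TM and to 38.7, 23.5, 16.8 and 8.86 in libraries 13 to 16, and plasma cell markers (4) to 1.55 to 6.04 and to 19.7, 9.55, 11.4 and 4.07, so library 13, lowest for the mitosis genes, was highest for both. In TE the gamma-delta sum was 80.5 to 90.7 in WT and 148 to 254 in TPdh-/- cells, and the NK sum without Gzma 3.36 to 4.87 and 4.93 to 9.18, while with Gzma it was 1621 to 1816 in WT and 700 to 888 in TPdh-/- cells. Macrophage markers summed to 10.2 to 13.7 in WT TE and 14.1 to 23.4 in TPdh-/- TE, where 4 were called higher and 1 lower. The largest part was Cd68 (7.34 to 9.4 and 9.63 to 14.1). Dendritic cell markers summed to 5.16 to 6.53 and 1.74 to 4.37 in TE. Of the 10 CD8 T cell markers 6 were lower in TPdh-/- TM and 8 in TPdh-/- TE, and 0 were higher. Cd8a was at 748 to 856 TPM in WT TM and 437 to 580 in TPdh-/- TM, and Cd8b1 at 740 to 846 and 453 to 525. In TE Cd8a was at 297 to 328 in WT and 289 to 341 in TPdh-/- cells, and Cd8b1 at 419 to 434 and 265 to 298. CD4 T cell markers (3) summed to 2.78 to 4.22 in WT TM and 5.36 to 9.38 in TPdh-/- TM, with no overlap and 2 called higher. In TE they summed to 10.2 to 16.7 in WT and 7.67 to 20.4 in TPdh-/- cells, with 1 called higher. Cd4 itself was at or below 0.5 in every library. Neutrophil, mast cell and erythroid markers summed to at most 3.55 TPM in any library. Mast cell markers summed to 0.87 to 1.14 in WT TM and 1.89 to 2.8 in TPdh-/- TM. Of the fibroblast and endothelial markers Pecam1 was at 27.9 to 69.2 and the other 4 at or below 0.15. Among these lists, Siglech and Clec9a of the dendritic cell list were at 0 in WT TE, S100a9 and Ly6g of the neutrophil list in TPdh-/- TM, and Fcer1a of the mast cell list in both TM groups. The part of other cells in the mitosis result was not tested.

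The cycling chromatin markers were Mki67, which encodes the Ki-67 protein that coats mitotic chromosomes, and Top2a. Mki67 was at 1993, 2025, 1997 and 2277 CPM in WT TE, at 1509, 1499, 1386 and 1504 in TPdh-/- TE, at 1311, 1186, 1251 and 1272 in WT TM and at 816, 967, 1101 and 980 in TPdh-/- TM. The 4 groups did not overlap. The genotype difference was -0.49 in TE (SE 0.055, adjusted p = 8.4e-05) and -0.38 in TM (SE 0.094, adjusted p = 0.0016). Top2a, the most abundant member per length in all 4 groups (466 TPM ± 18.2 in WT TE, 292.6 ± 33.04 in TPdh-/- TM), behaved otherwise in TE. It was at 1546 to 1693 CPM in WT TE and at 1413 to 1698 in TPdh-/- TE, with overlap (-0.062, SE 0.065, adjusted p = 0.62). In TM it fell from 1287, 1117, 1187 and 1069 in WT to 786, 1014, 1067 and 956 in TPdh-/- cells (-0.29, SE 0.11, adjusted p = 0.026).

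**Figure D3:**
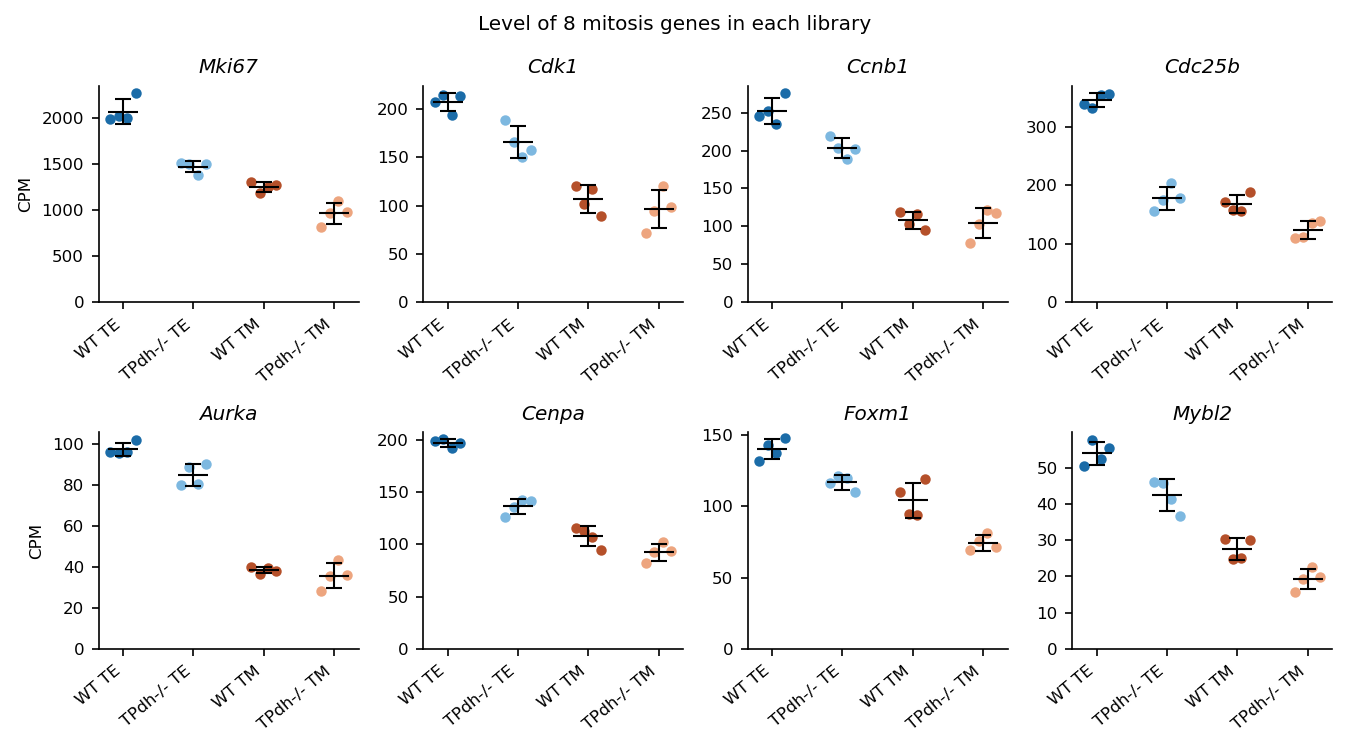
CPM (y axis, from 0) of 8 mitosis genes in each library (points) by group (x axis), with bars for the mean ± SD of 4 libraries. Mki67 and Mybl2 fall in each step from WT TE to TPdh-/- TM, Cdc25b is already low in TPdh-/- TE, and the WT and TPdh-/- TM points of Ccnb1 and Aurka overlap.

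CDK1, its cyclins and CDC25 phosphatases included the member with the largest genotype difference in TE. Cdc25b (ENSMUSG00000027330, chr2:131186949-131198497, GRCm38), which removes the inhibitory phosphates of CDK1, was at 339, 333, 355 and 357 CPM in WT TE and at 156, 175, 204 and 178 in TPdh-/- TE, 51.5% of WT (log2 difference -0.96, SE 0.083, adjusted p = 5.2e-07). In TM it was at 171, 158, 156 and 188 in WT and at 111, 111, 135 and 140 in TPdh-/- cells (-0.44, SE 0.11, adjusted p = 0.0020). The TPdh-/- TE libraries of Cdc25b thus overlapped those of WT TM. Cdc25c, a less abundant phosphatase of the same family, fell by 0.45 in TE (SE 0.036) and by 0.33 in TM (SE 0.10) on the log2 scale.

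Ccnb2 and Ccna2, cyclins B2 and A2, were lower in both cultures, and Ccnb1, cyclin B1, only in TE by this test. Ccnb2 was at 177, 172, 172 and 182 CPM in WT TE and at 110, 115, 111 and 117 in TPdh-/- TE (-0.63, SE 0.030, adjusted p = 2.4e-05), and its TM libraries ran from 81.5 to 93.2 in WT and from 57.9 to 86.8 in TPdh-/- cells (-0.29, SE 0.13, adjusted p = 0.026). Ccna2 fell by 0.45 in TE and by 0.36 in TM. Ccnb1 was at 246, 252, 235 and 275 in WT TE and at 220, 203, 189 and 202 in TPdh-/- TE (-0.31, SE 0.065, adjusted p = 0.036). In TM it was at 119, 104, 116 and 95.0 in WT and at 78.1, 103, 122 and 117 in TPdh-/- cells, which overlapped (-0.045, SE 0.16, adjusted p = 0.82), and without library 13 or library 9 its value was above 0. Cdk1 was at 194 to 214 CPM in WT TE, at a mean of 166 ± 16.6 (SD, n = 4) in TPdh-/- TE, with 189 in the highest library, and at 89.1 to 121 in WT TM and 72.1 to 121 in TPdh-/- TM. Its genotype differences were -0.32 in TE (SE 0.077, adjusted p = 0.051) with no overlap and -0.15 in TM (SE 0.18, adjusted p = 0.43), and neither was called. From TE to TM all 6 genes fell in WT, by 0.68 for Ccna2 up to 1.22 for Ccnb1.

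The kinases Plk1 and Aurka, with Tpx2, which brings Aurora A to the spindle and activates it, had the largest median culture difference of the role groups, where the median gene fell by 1.10 in WT. Aurka was at 96.0, 95.9, 96.0 and 102 CPM in WT TE and at 39.99, 36.5, 39.3 and 38.0 in WT TM, 39.4% of the TE level and the lowest share of any member (-1.34, SE 0.037, adjusted p = 7.4e-10). It was at 80.2 to 90.5 in TPdh-/- TE and 28.3 to 43.2 in TPdh-/- TM, and neither genotype difference was called (-0.20 with adjusted p = 0.091 in TE, and -0.10 with adjusted p = 0.46 in TM). Plk1 fell by 1.10 in WT culture and was lower in TPdh-/- cells by 0.42 in TE (SE 0.071, adjusted p = 0.0068) and by 0.37 in TM (SE 0.16, adjusted p = 0.025), where WT ran from 32.3 to 47.6 CPM with library 12 highest and TPdh-/- from 24.7 to 34.2. Tpx2 was called in TM (-0.28, adjusted p = 0.027) and missed the threshold in TE (-0.22, adjusted p = 0.052).

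Of 4 spindle checkpoint genes, Bub1 and Bub1b were lower in TPdh-/- cells of both cultures, Ttk (the kinase MPS1) in TE only by this test, and Mad2l1, whose protein MAD2 binds and holds CDC20, in neither. Bub1b was at 241 to 265 CPM in WT TE, 188 to 203 in TPdh-/- TE, 133 to 158 in WT TM and 92.1 to 131 in TPdh-/- TM. Its genotype difference was -0.36 in TE (SE 0.041, adjusted p = 0.0026) and -0.36 in TM (SE 0.12, adjusted p = 0.0046). Mad2l1 was at 110 to 136 CPM in WT TM and 92.0 to 136 in TPdh-/- TM (-0.12, SE 0.14, adjusted p = 0.42). The checkpoint's target Cdc20 and the ubiquitin-conjugating enzyme Ube2c, which both serve the anaphase-promoting complex, were among the members most lowered in TE. Cdc20 was at 137, 138, 134 and 144 CPM in WT TE and at 94.0, 99.7, 94.1 and 100.6 in TPdh-/- TE (-0.51, SE 0.033, adjusted p = 1.5e-04). Ube2c was at 97.6, 100.6, 100.6 and 110 in WT TE and at 70.1, 65.7, 63.9 and 67.3 in TPdh-/- TE (-0.62, SE 0.048, adjusted p = 1.9e-05). In TM they fell by 0.26 (adjusted p = 0.038) and 0.37 (adjusted p = 0.0036). Of the exon bases of Ube2c 22.8% overlap Tnnc2 on the other strand, and the kit did not keep strand.

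All 4 genes of the chromosomal passenger complex, which corrects wrong kinetochore attachments and later moves to the central spindle, were lower in TPdh-/- cells of both cultures. The calls of Incenp and Cdca8 held in every alternative in both cultures, while Birc5 lost its TM call and Aurkb both calls in at least 1 alternative. Incenp, the scaffold, was at 222, 240, 223 and 248 CPM in WT TE, at 186, 191, 172 and 176 in TPdh-/- TE, at 145, 131, 125 and 156 in WT TM and at 94.1, 103, 109 and 100 in TPdh-/- TM, with no overlap between any groups. Its difference of -0.45 in TM (SE 0.085, adjusted p = 1.6e-04) was among the most certain there, beside -0.36 in TE (SE 0.052, adjusted p = 6.2e-04). Aurkb, the kinase of the complex, Birc5 and Cdca8 (borealin) fell by 0.31, 0.33 and 0.32 in TM and by 0.31, 0.46 and 0.34 in TE. Per length Birc5 was the third most abundant member, at 331 TPM ± 15.9 in WT TE and 157 ± 12.9 in WT TM.

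Among 5 centromere and kinetochore genes, all were lower in TPdh-/- TE and 3 in TPdh-/- TM. Cenpa (ENSMUSG00000029177, chr5:30666777-30674830), the histone H3 variant of centromeres, was at 199, 201, 193 and 197 CPM in WT TE and at 126, 136, 142 and 142 in TPdh-/- TE (-0.53, SE 0.042, adjusted p = 1.6e-05). In TM it was at 116, 113, 107 and 94.4 in WT and at 81.9, 93.0, 102 and 93.4 in TPdh-/- cells, with overlap (-0.22, SE 0.093, adjusted p = 0.035). Cenpe, a kinetochore motor, and Cenpf fell by 0.33 and 0.40 in TE and by 0.22 and 0.34 in TM. Ndc80 and Nuf2, which form the arm that grips microtubules, fell by 0.29 and 0.33 in TE, and in TM their differences of -0.15 (SE 0.15) and -0.12 (SE 0.16) were not called. From WT TE to WT TM the group's smallest difference was that of Cenpf (-0.54), and Cenpe and Ndc80 fell by 1.00 each.

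Of 9 kinesin motors, 6 were lower in TPdh-/- TE and 7 in TPdh-/- TM. Kif18b (ENSMUSG00000051378, chr11:102905529-102925124), which shortens astral microtubules, had the largest genotype difference of all members in TM. It was at 57.7, 48.8, 48.3 and 64.2 CPM in WT TM and at 31.6, 36.1, 44.9 and 37.7 in TPdh-/- TM, 68.6% of WT (-0.54, SE 0.14, adjusted p = 8.7e-04), and fell by 0.36 in TE. Kif23, the motor of the central spindle, was at 149 to 164 CPM in WT TE and 108 to 115 in TPdh-/- TE (-0.48, SE 0.035, adjusted p = 1.2e-05), and at 119, 107, 107 and 114 in WT TM and 75.6, 87.2, 94.8 and 85.6 in TPdh-/- TM (-0.38, SE 0.076, adjusted p = 2.2e-04). It was also among the members that differed least between cultures (-0.47 in WT), so WT TM and TPdh-/- TE overlapped. Kif22 fell by 0.42 and 0.33 in TE and TM with groups apart in both.

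Kif11 and Kif15, the motors that push spindle poles apart, fell in TM (-0.29 and -0.30) and were not called in TE (-0.19 with adjusted p = 0.083, and -0.20 with adjusted p = 0.074). Kif2c, which takes microtubules apart at centromeres, showed the reverse, with -0.35 in TE (adjusted p = 0.0071) and -0.11 in TM (adjusted p = 0.47). It ran from 44.5 to 50.3 CPM in WT TM and from 34.7 to 53.2 in TPdh-/- TM. Kif4 and Kif20a were lower in both cultures, and Kif20b was called in neither (-0.14 in TE and -0.12 in TM). Of the exon bases of Kif20a 29.3% overlap Cdc23 on the other strand, and 15.1% of those of Kif4 overlap Pdzd11.

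Genes of the central spindle and cytokinesis had the smallest median genotype differences of the role groups (-0.20 in TE and -0.16 in TM). Prc1, which bundles the microtubules between separating chromosomes, fell by 0.26 in TE (SE 0.040, adjusted p = 0.022). In TM it was at 157 to 178 CPM in WT and 116 to 166 in TPdh-/- cells (-0.20, SE 0.12, adjusted p = 0.093). Anln (anillin of the contractile ring) and Ect2 (the RHOA activator that starts it) were called in neither culture, with values of -0.11 and -0.20 in TE and -0.15 and -0.16 in TM. All 3 fell from TE to TM, by 0.71 to 0.90 in WT.

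The transcription factors of the set followed Kif18b in the size of their genotype difference in TM. Foxm1 (ENSMUSG00000001517, chr6:128362967-128376146) was at 110, 94.6, 94.2 and 119 CPM in WT TM and at 69.2, 75.5, 81.6 and 71.5 in TPdh-/- TM, 71.3% of WT (-0.49, SE 0.099, adjusted p = 1.5e-04, the lowest of all 40). In TE it was at 132, 143, 138 and 148 in WT and 117, 122, 120 and 110 in TPdh-/- cells (-0.26, SE 0.049, adjusted p = 0.012). It differed least of all members between cultures in WT (-0.42, SE 0.091). Mybl2 (B-MYB) was at 30.3, 24.9, 25.0 and 29.98 CPM in WT TM and at 15.8, 19.2, 22.6 and 19.9 in TPdh-/- TM (-0.51, SE 0.13, adjusted p = 0.0019), and fell by 0.35 in TE (adjusted p = 0.014). Per length it was among the least abundant members, at 23.0 TPM ± 1.77 in WT TE and 10.2 ± 0.895 in TPdh-/- TM.

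**Figure D4:**
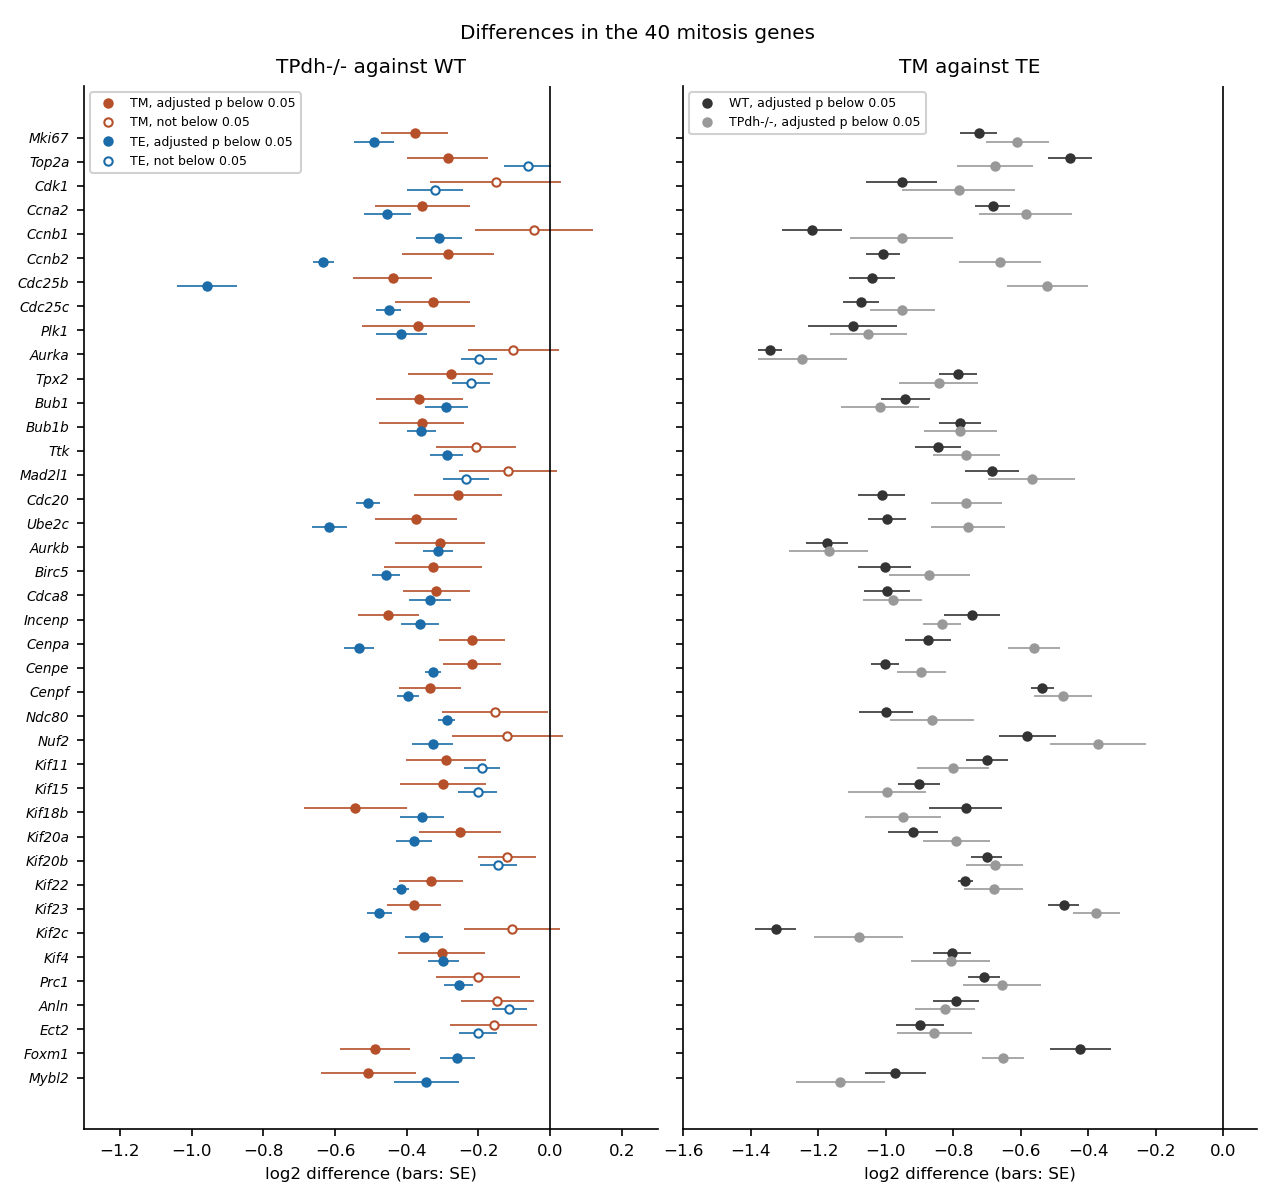
Log2 differences (x axis, bars for the SE) of 40 mitosis genes (rows), TPdh-/- against WT on the left and TM against TE on the right. Filled points have an adjusted p below 0.05. All points lie below 0 in this fit (in TE, 36 do on log2(TPM + 1)), and the culture differences, -1.34 to -0.42 in WT, are mostly larger than the genotype differences.

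The genotype difference itself differed between cultures for 2 members. The interaction, the genotype difference in TM minus that in TE, was 0.52 for Cdc25b (SE 0.14, adjusted p = 0.0090) and 0.31 for Cenpa (SE 0.10, adjusted p = 0.035), so both were lowered less in TM than in TE. This is 2 of 40, where 8.05% of all genes were called higher in the interaction and 7.51% lower. No member was called lower by edgeR or DESeq2, with 1 lower and 5 higher at an unadjusted p under 0.05, and DESeq2 called 3 higher. The median over the members was 0.083, and it was -0.13 on log2(TPM + 1), where 3 members were called lower and 0 higher and all genes split into 520 higher and 2277 lower, against 1230 and 1148 here and 921 and 1801 with library totals. Ccnb2 missed the threshold (0.35, SE 0.13, adjusted p = 0.057). Genes called in only 1 culture, such as Ccnb1 (0.26, adjusted p = 0.27), Kif2c (0.25, adjusted p = 0.22) and Top2a (-0.22, adjusted p = 0.23), were not shown to differ between cultures. On log2(TPM + 1) neither Cdc25b (0.36, adjusted p = 0.072) nor Cenpa (0.16, adjusted p = 0.21) was called, and Cenpa also lost its call without libraries 5 and 12 (0.22, adjusted p = 0.085) and without each of libraries 2, 5, 6 and 15. Without library 13 the interaction called 5 members.

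**Figure D5:**
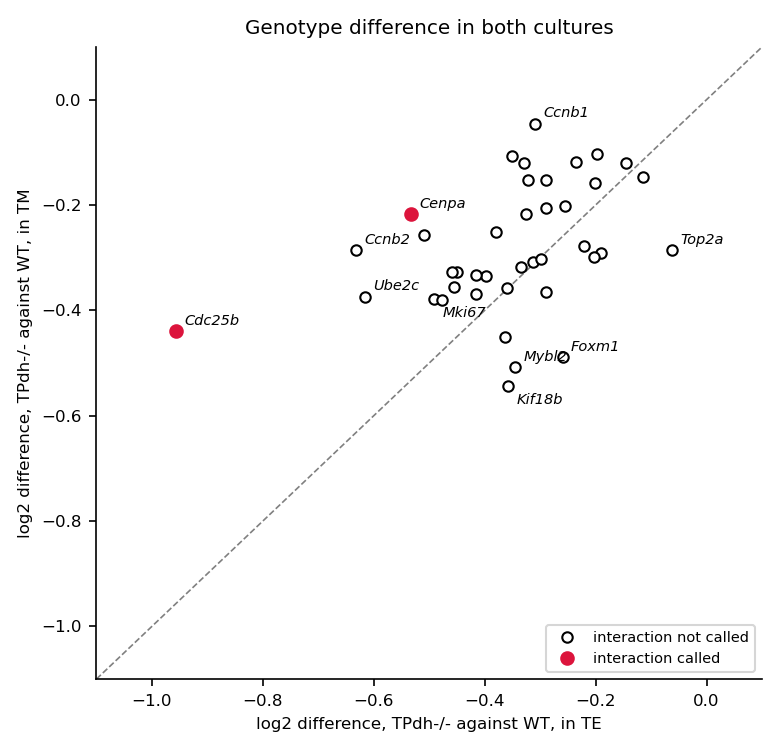
Log2 difference of TPdh-/- against WT in TE (x axis) and in TM (y axis) for 40 mitosis genes, with a dashed line where both are equal. Filled points mark Cdc25b and Cenpa, for which the interaction was called, and all 40 points lie below 0 on both axes in this fit (36 in TE on log2(TPM + 1)).

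Related genes outside the set were counted by lists of their pathway, beside 7.27% of all genes lower and 11.0% higher in TM, 14.3% lower in TE and 34.3% lower in WT culture. Of 42 other kinetochore and centromere genes, 13 were lower in TPdh-/- TM, 16 were lower in TE and 40 fell from TE to TM in WT. Hjurp, the chaperone that deposits CENP-A, was at 373 CPM ± 20.6 in WT TM and 298 ± 16.5 in TPdh-/- TM (-0.32, adjusted p = 3.2e-04), and fell by 0.37 in TE. Cenpm was at 4.09 CPM ± 0.86 and 2.45 ± 0.56 (-0.74, adjusted p = 0.0028), and Spc24, a subunit of the NDC80 complex, fell by 0.37. From WT TE to WT TM Cenpp fell by 1.42 and Cenpt by 0.76. Of 35 other spindle, centrosome and cytokinesis genes, 20 were lower and 1 higher in TM, 21 lower and 1 higher in TE, and 33 fell in WT culture. Racgap1, the partner of KIF23 in the central spindle, fell by 0.34 in TM, Troap by 0.50, the midbody kinase Cit by 0.50 and the minus-end motor Kifc1 by 0.51. Psrc1, named because it was the 1 gene of the list that rose, went from 10.4 CPM ± 1.00 to 15.04 ± 0.88 in TM (0.53, adjusted p = 0.0045) and rose by 0.43 in TE. In WT culture Pimreg fell by 1.45, Hmmr by 1.19 and Cep55 by 1.00. The median differences in TM were -0.22 and -0.24 for these lists, against -0.29 for the 40 members.

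Of 19 condensin and cohesin genes 8 were lower in TPdh-/- TM, among them the condensin subunits Ncapd2 (-0.41, adjusted p = 3.7e-04), Ncapd3 (-0.26) and Ncaph (-0.29) and the cohesin subunit Smc1a (-0.26). Of 19 genes of the anaphase-promoting complex, separase and inhibitors, 5 were lower and 1 higher in TM. Espl1 (separase) fell by 0.59 (SE 0.13, adjusted p = 2.6e-04), Ube2s by 0.46 and Fzr1 by 0.32, while Pttg1 (securin, the inhibitor of separase) rose from 22.2 CPM ± 1.70 to 28.9 ± 1.64 (0.39, SE 0.069, adjusted p = 0.0026) and fell by 0.26 in TE. Of 18 tested entry control genes, 2 were lower and 1 higher in TM, shares near those of all genes. Bora, the cofactor with which Aurora A activates PLK1, fell by 0.22, Pkmyt1, which phosphorylates and inhibits CDK1, by 0.26, and Nek6 rose from 5.33 CPM ± 0.22 to 8.79 ± 1.27 (0.72, adjusted p = 4.2e-04) and by 1.12 in TE.

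Of 19 genes of the DREAM and MuvB complex and its E2F partners, 3 were lower and 2 higher in TPdh-/- TM, where 7.27% and 11.0% of all genes were. The share called higher was thus near that of all genes, and 14 genes were not called. E2f2 fell by 0.62 (from 210 CPM ± 10.5 to 136 ± 13.2, adjusted p = 2.3e-06) and E2f8 by 0.40. The higher genes were pocket proteins, Rbl2 (p130, of the DREAM complex) rising from 124 CPM ± 2.88 to 166 ± 7.26 (0.42, SE 0.036, adjusted p = 2.1e-04) and Rb1 from 76.7 ± 3.23 to 90.0 ± 6.497 (0.23, adjusted p = 0.0070), while the third, Rbl1 (p107), was not called (0.05, adjusted p = 0.59). In TE Rbl2 (-0.12, adjusted p = 0.20) and Rb1 (0.12, adjusted p = 0.10) were not called. Of the exon bases of Rbl2 21.0% overlap Aktip and a second gene on the other strand, and of those of Rb1 14.9% overlap Lpar6 and Rcbtb2. Of 16 genes of tubulins and the gamma-tubulin complex (Tubgcp2 and Tubgcp3), 4 were lower and 2 higher in TM. Tubb5, the most abundant of those named, fell from 1081 CPM ± 76.5 to 901 ± 90.2 (-0.26, adjusted p = 0.010), the gamma-tubulin Tubg1 fell by 0.30, the scarce Tubb3 fell from 1.88 CPM ± 0.23 to 0.439 ± 0.11, and the scarce Tuba8 rose from 0.235 ± 0.14 to 1.64 ± 0.58. From TE to TM in WT, Tubb6 fell from 25.8 CPM ± 2.57 to 1.69 ± 0.17 (-3.93, adjusted p = 2.1e-13). Of 28 replication genes, 8 were lower in TM, 7 in TE and 27 fell in WT culture. Cdt1, which licenses origins, fell by 0.34 in TM and 0.39 in TE, and in TM Pold1 fell by 0.49, Mcm10 by 0.42 and Mcm7 by 0.34. From WT TE to WT TM Tk1, a thymidine kinase, fell by 1.26, Cdt1 by 1.11 and Gins2 by 0.94. Of the exon bases of Gins2 67.3% overlap Gse1 on the other strand, and 16.3% of those of Tuba8 overlap Gm15856. Reads of Gse1 may thus add to the Gins2 count, which was not tested.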

How the data were processed

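Poly(A) RNA of 16 libraries (4 groups of 4) was sequenced on a NovaSeq with a kit that, as used here, keeps no strand. Per the labels the authors aligned reads to mm10 (GRCm38) with STAR 2.7.6a, estimated expected counts and TPM per gene with RSEM 1.3.3, and used DESeq2. The annotation release is not given in the sources used here. The deposited expected counts were rounded, and the deposited TPM, which the authors scaled for length and library total, served for levels between genes and marker sums. FPKM was not used. Totals were 53007257 to 73507566 counts per library, and 99.5% of genes matched GENCODE M21.

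Genes were filtered with filterByExpr (minimum count 10, minimum total 15) and scaled with TMM factors. With edgeR 4.0.16 (R 4.3.3), 4 group means were estimated over all libraries (glmQLFit) and 5 contrasts tested (glmQLFTest). Adjusted p-values are Benjamini-Hochberg over 15277 genes, called below 0.05, and the SE comes from the spread of log2 CPM (prior count 2). Scripts were tested on simulated data. Alternatives were DESeq2 1.42.0, limma 3.58.1 on log2(TPM + 1), other scalings, no filter, fewer groups and fewer libraries. CPM and TPM are followed by the SD over 4 libraries. Promoter windows are from RefSeq.

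The members and lists were chosen with earlier results of these data known. Named genes are the 40 members, up to 4 genes per list with the lowest adjusted p for genotype in TM, up to 3 with the lowest for culture in WT, and Pdha1. Psrc1 and Rbl1 in TM were named after their values were seen. Some of the list genes are not reported here.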

Additional observations from a re-analysis of the deposited data

Results flagged for a closer look

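In 6 of 160 sets of 4 libraries (40 genes in 4 groups), 1 library lay far from the other 3 by Dixon's test, which chance alone would give in about 1 set in 20. Library 4 was high in WT TE for Mki67 (2277 CPM, others 1993 to 2025), Aurka (102, others 95.9 to 96.0), Anln (67.5, others 63.5 to 63.9) and Ect2 (131, others 119.6 to 120.4). Library 7 was low in TPdh-/- TE for Mki67 (1386 CPM, others 1499 to 1509), and library 9 was high in WT TM for Kif4 (91.3 CPM, others 79.7 to 81.6).

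The genotype difference differed between TM and TE by a test of the interaction for Cdc25b (0.52 on the log2 scale) and Cenpa (0.31), both lowered less in TM. These are 2 of 40 members, where 8.05% of all genes were called higher, and neither call held in every alternative run.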

How the results depend on the processing

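The 40 members stayed lower in TM than TE under every alternative run, and 40 were called in each except log2(TPM + 1) in WT, where 38 were (not Foxm1 and Kif23). In the TM genotype comparison a fit to the compared groups only called 15 lower, leaving out 1 library gave 15 (library 9) to 31 (library 15), and 15 of the 28 calls held in every alternative. The share of all genes called lower fell too, from 7.27% to 4.64% in the compared groups only and 5.15% without library 9. The TE genotype comparison gave 24 under library totals, 16 on log2(TPM + 1) and 28 to 33 without 1 library, and 16 of the 30 calls held in every alternative. Leaving out libraries 5 and 12 gave 27 and 35. In the interaction 1 member was higher under library totals, 0 on log2(TPM + 1), where 3 were lower, 1 without libraries 5 and 12, and 1 (library 2, 5, 6 or 15) to 5 (library 13) without 1 library. Values turned positive for Ccnb1 in TM (0.003 without library 9, 0.073 without library 13) and in TE for Top2a (0.017 with library totals, 0.071 on log2(TPM + 1)), Kif15 (0.085), Kif20b (0.008) and Ect2 (0.016 on log2(TPM + 1)), and the cause was not tested. On log2(TPM + 1) the median of all genes shifted to 0.12 in WT culture and -0.12 in the interaction. No paired analysis was possible because no replicate number is shared between groups.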
